A study of Mus musculus with 14 samples.

Results

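Smpx, Ckm, Ckb, Actn2, Hspb6, Hspb7, Nexn, Ldb3 and Myom1 are genes best known from heart and skeletal muscle whose RNA was also found in the muscle coat of the mouse gut. They were chosen by their known roles and selected on their bulk counts and nuclear counts in this tissue, with earlier results of the comparison in view. The 9 genes are a small part of the 40481 genes of the bulk table, of which 20886 passed the filter on low counts, and all 9 passed it. Their levels were therefore part of the choice, and are given as a description.

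Muscularis of colon and jejunum came from C57BL/6 mice whose genotype label was "WT mTmG" (called WT) or "Carmn iKO" (called KO). Carmn encodes a non-coding transcript that smooth muscle cells make, and mTmG is a fluorescent reporter allele of Cre activity at the ROSA26 locus. Whether the KO mice carried the reporter, how and in which cells Carmn was deleted, and age, sex and treatment, were not stated in the labels. Bulk RNA-seq covered 3 KO and 3 WT libraries of each tissue, named by the tags m1, t1, t4, t6 and t7, and single nuclei of colon were profiled in 1 WT and 1 KO library. The labels do not say whether libraries came from separate mice, so p values measure the spread between these libraries, which may be partly technical.

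In striated muscle, actin filaments are anchored in Z discs and myosin filaments are held together at the M band. Alpha-actinin 2 (Actn2) crosslinks actin in the Z disc, the PDZ-LIM protein Ldb3 (also called cypher or ZASP) binds alpha-actinin there, nexilin (Nexn) is an actin-binding protein, and myomesin 1 (Myom1) bridges myosin filaments in the M band. Smooth muscle has no sarcomeres and anchors actin in dense bodies, which hold other alpha-actinins. Creatine kinases pass phosphate between creatine and ATP, with a muscle form (Ckm) and a brain form (Ckb) that smooth muscle also makes. Hspb6 and Hspb7 are small heat shock proteins of muscle, of which Hspb6 is known as a target of cyclic nucleotide signalling in smooth muscle, and Smpx is a small protein of muscle that has been linked to mechanical stretch.

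The start regions of 6 of the genes are shown, and those of Hspb6 and Hspb7 were searched in the same way but are not printed. RefSeq windows of 300 bases (250 before the start site and 50 from it on) in GRCm38.p6 were found for 8 of the 9 genes, in 10 entries, with none for Nexn. They were searched on both strands for the CArG box (bound by serum response factor), the MEF2 box, the E-box CANNTG and the TATA box TATAAA. Capitals mark a match to the CArG box or the MEF2 box, and positions count back from the start site.

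Smpx, chrX:157698723-157699022, plus strand: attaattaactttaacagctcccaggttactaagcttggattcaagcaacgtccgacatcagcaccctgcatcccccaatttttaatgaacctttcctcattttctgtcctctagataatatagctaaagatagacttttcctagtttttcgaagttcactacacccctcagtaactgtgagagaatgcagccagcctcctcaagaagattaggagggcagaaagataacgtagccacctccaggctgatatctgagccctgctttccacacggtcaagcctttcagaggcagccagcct
Ckm, chr7:19410844-19411143, plus strand: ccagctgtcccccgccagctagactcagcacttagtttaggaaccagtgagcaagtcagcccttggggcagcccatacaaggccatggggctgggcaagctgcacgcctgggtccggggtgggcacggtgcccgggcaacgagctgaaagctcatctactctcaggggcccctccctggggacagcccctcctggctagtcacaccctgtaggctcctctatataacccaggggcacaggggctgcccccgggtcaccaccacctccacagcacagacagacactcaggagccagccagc
Ldb3, chr14:34588632-34588931, minus strand: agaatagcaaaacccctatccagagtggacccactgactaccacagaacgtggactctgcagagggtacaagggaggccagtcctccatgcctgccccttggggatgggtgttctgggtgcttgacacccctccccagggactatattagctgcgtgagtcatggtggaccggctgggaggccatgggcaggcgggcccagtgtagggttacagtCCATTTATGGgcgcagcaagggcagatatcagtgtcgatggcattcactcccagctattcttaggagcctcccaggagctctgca
Myom1, chr17:71019307-71019606, plus strand: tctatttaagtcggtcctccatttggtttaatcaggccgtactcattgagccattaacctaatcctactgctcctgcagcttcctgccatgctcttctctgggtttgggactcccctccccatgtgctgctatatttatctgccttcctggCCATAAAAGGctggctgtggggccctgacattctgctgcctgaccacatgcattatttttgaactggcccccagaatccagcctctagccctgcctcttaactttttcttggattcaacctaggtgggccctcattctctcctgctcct
Ckb, chr12:111672289-111672588, minus strand: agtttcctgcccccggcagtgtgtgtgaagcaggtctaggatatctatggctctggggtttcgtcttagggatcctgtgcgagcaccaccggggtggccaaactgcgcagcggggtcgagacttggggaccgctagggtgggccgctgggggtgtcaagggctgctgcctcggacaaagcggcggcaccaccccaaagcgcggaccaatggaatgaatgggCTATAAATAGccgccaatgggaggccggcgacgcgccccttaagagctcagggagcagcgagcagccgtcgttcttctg
Actn2, chr13:12340683-12340982, minus strand: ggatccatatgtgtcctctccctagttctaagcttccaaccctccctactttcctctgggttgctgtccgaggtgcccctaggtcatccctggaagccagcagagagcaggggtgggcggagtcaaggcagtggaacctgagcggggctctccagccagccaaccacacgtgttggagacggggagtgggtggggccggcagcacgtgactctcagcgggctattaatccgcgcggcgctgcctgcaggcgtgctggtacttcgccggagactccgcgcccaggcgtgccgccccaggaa

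A CArG box stood in the windows of Ldb3 (CCATTTATGG, first base at -35) and Myom1 (CCATAAAAGG, first base at -99). A second Ldb3 start in RefSeq lay downstream, so that the same match was at -109 of it. The CArG box occurs in 1.63% of the 32851 mouse RefSeq windows of this length that were searched. These left out a chromosome that holds none of the genes studied here. Ckb had a MEF2 box at -29 (in 3.19% of windows), and the TATAAA at -28 lies inside it. TATAAA is found in 13.6% of windows, and among the 10 entries it was otherwise seen at -29 of the downstream Hspb6 start. No CArG or MEF2 box match was found in the windows of Smpx, Ckm, Actn2, Hspb6 and Hspb7. The E-box is in 72.3% of the windows searched and was present in those of Ckm, Actn2, Hspb7 and Myom1.

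Bulk libraries held 24254905 to 44315104 counts. Carmn went against the label, with 303.9 to 717.9 counts scaled to library size (CPM) in KO-labelled colon libraries and 171.5 to 351.5 CPM in WT. In jejunum it stood at 817.5 to 996.1 CPM in KO-labelled libraries and 205.8 to 326.2 CPM in WT. The difference passed in neither tissue (log2 fold change 0.94, adjusted p = 0.234, and 1.82, adjusted p = 0.0646). Which exons were deleted was not stated in the labels, so KO below always means libraries labelled KO. The 13 smooth muscle marker genes summed to 39360 to 104800 CPM, the highest in KO jejunum m1. Epithelial markers ranged from 110 CPM in WT colon t7 to 4509 CPM in WT colon t6.

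The level of each gene is given per length, as reads per exon length and library depth (RPKM), where genes are compared with each other. In WT colon the order was Ckb at 349 ± 101 RPKM (SD, n = 3 in this and the following), Hspb6 at 77.0 ± 13.2, Hspb7 at 70.6 ± 16.4 and Myom1 at 32.4 ± 12.9. Then came Ckm at 20.2 ± 3.68 RPKM, Nexn at 14.2 ± 2.59, Ldb3 at 13.6 ± 3.29, Actn2 at 3.23 ± 2.02 and Smpx at 1.74 ± 0.236. Hspb6 and Hspb7, Myom1 and Ckm, Nexn and Ldb3, and Actn2 and Smpx were neighbours whose means differed by less than the larger of their SDs. In WT jejunum Ckb stood at 475 ± 15.6 RPKM, Hspb6 at 197 ± 15.8, Hspb7 at 52.4 ± 15.3 and Ckm at 40.2 ± 2.26. They were followed by Myom1 at 21.4 ± 3.51 RPKM, Nexn at 14.9 ± 3.22, Ldb3 at 14.9 ± 0.538, Actn2 at 7.07 ± 1.06 and Smpx at 2.68 ± 0.808. Hspb7 and Ckm, and Nexn and Ldb3, were the neighbours there that differed by less than their larger SD.

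**Figure D1:**
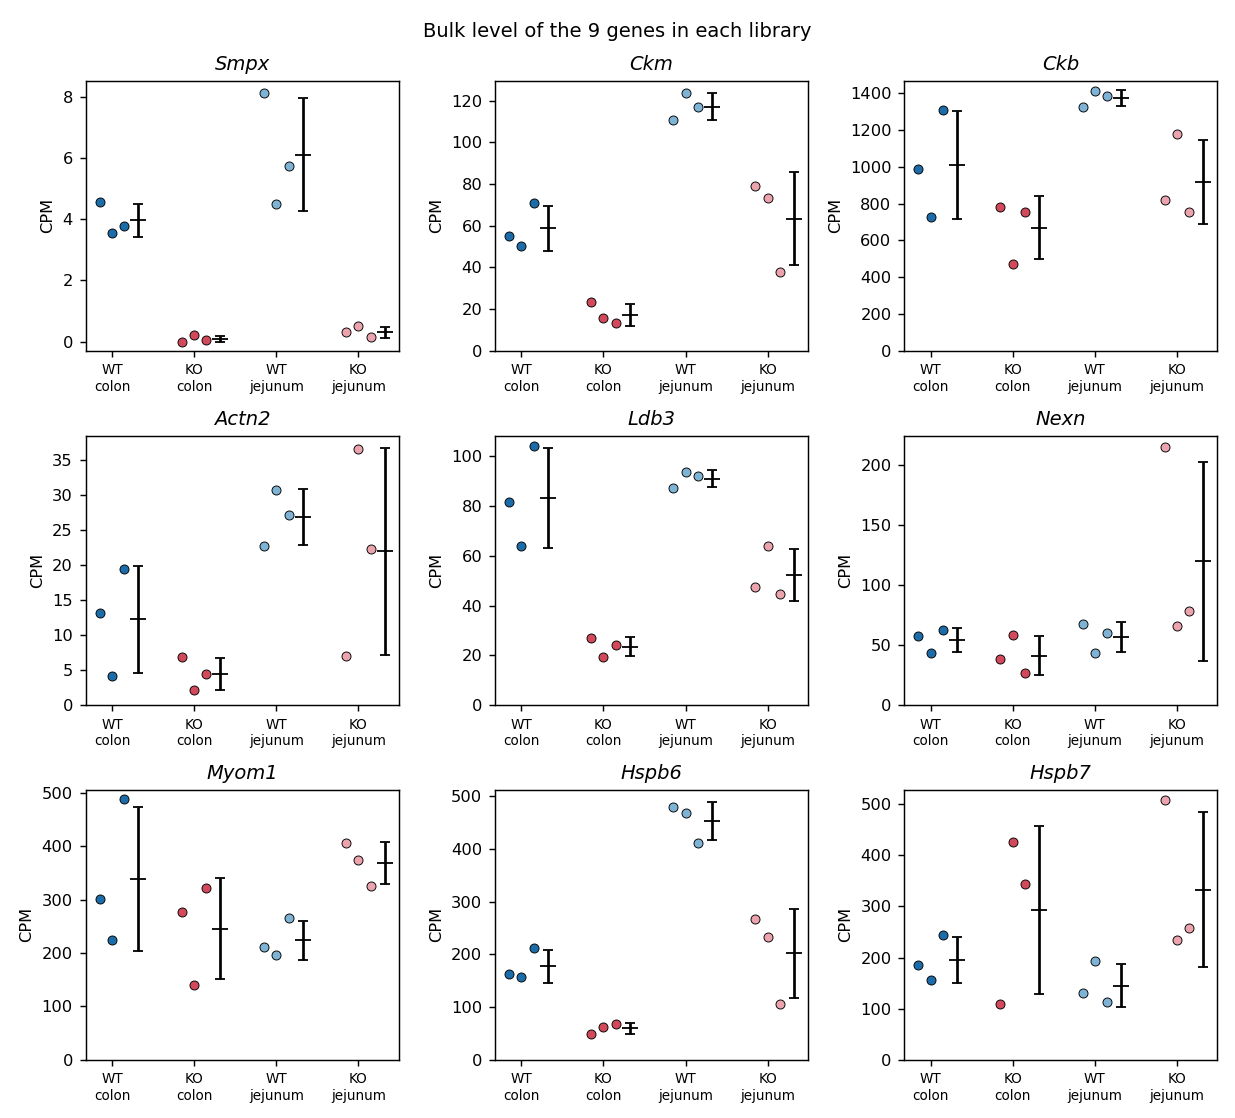
Each panel shows 1 gene, with CPM on the vertical axis and the 4 groups of 3 bulk libraries on the horizontal axis; points are libraries in the order of their tags and the bars beside them are the mean ± SD. Smpx lies below 0.5 CPM in all 6 KO libraries and above 3.5 CPM in all 6 WT libraries, whereas Hspb7 overlaps between KO and WT colon.

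Smpx, Ckm and Ldb3 fell in KO colon, and none of the 9 genes passed the test as higher there, where only the Hspb7 estimate was above 0. Across the 20886 genes, 0.388% passed the threshold in colon (edgeR quasi-likelihood test, Benjamini-Hochberg adjusted p below 0.05) and 0.273% passed it as lower in KO, against 3 of the 9 genes here. The list was put together with results of these libraries known, so this count is not independent evidence of a direction. The median log2 fold change of the 9 genes in colon was -1.44, beside 0.0043 over all genes. In jejunum none of the 9 passed the test, although 6 had an unadjusted p below 0.05, as did 2762 of all 20886 genes, and their median was -0.58, beside 0.018 over all genes. There 0.215% of genes passed in either direction and 0.0910% as lower in KO. All 3 colon calls were lost when only the 6 colon libraries were fitted (edgeR adjusted p = 0.150 for Smpx, 0.135 for Ckm and 0.117 for Ldb3). In bulk tissue fewer cells of a type and less RNA per cell cannot be told apart.

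Smpx (ENSMUSG00000041476, chromosome X, 157698910 to 157752591 in GRCm38, plus strand) had the largest fold difference of the 9 genes. Its counts were low throughout, with 148 (t1), 129 (t6) and 97 (t7) reads in WT colon and 0 (m1), 6 (t4) and 2 (t6) in KO colon. In jejunum it had 220 (t1), 154 (t6) and 215 (t7) reads in WT and 6 (m1), 18 (t1) and 6 (t4) in KO. Every WT library thus stood above every KO library in both tissues. Summed over libraries and scaled by library size, WT was 56.7 times KO in colon (exact 95% interval 28.5 to 132) and 19.9 times KO in jejunum (13.8 to 29.7), where the intervals cover counting error only. The fit gave a log2 value of -5.62 in colon (SE 0.84, edgeR adjusted p = 0.0250) and -4.29 in jejunum (SE 0.75, adjusted p = 0.0527). A two-sided exact permutation test gave p = 0.1 in each tissue, the smallest that 3 against 3 allows. With so few KO reads the fitted value depends on the prior count. The colon call was lost without WT colon t1, WT colon t6, KO colon t6, WT jejunum t1 or WT jejunum t7 (adjusted p over the 12 fits that each left out 1 library 0.0142 to 0.117), and Smpx in jejunum passed without KO colon m1 or KO colon t4 (range 0.0102 to 0.218).

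Ckm (ENSMUSG00000030399, chromosome 7, 19404776 to 19422841, plus strand), the muscle form of creatine kinase, had 54.9 (t1), 50.5 (t6) and 70.9 (t7) CPM in WT colon. KO colon had 23.2 (m1), 15.5 (t4) and 13.2 (t6) CPM, so that the groups did not overlap, at a log2 fold change of -1.76 with SE 0.29 and an edgeR adjusted p = 0.0320. In jejunum WT had 111 (t1), 124 (t6) and 117 (t7) CPM and KO 79.0 (m1), 73.2 (t1) and 38.0 (t4) CPM. The jejunum groups did not overlap either, and the difference of -0.89 (SE 0.28, adjusted p = 0.208) did not pass. The colon call of Ckm stayed in only 4 of the 12 fits that left out a library, namely KO colon m1, KO jejunum m1, KO jejunum t1 or KO jejunum t4 (adjusted p 0.0184 to 0.129). An antisense gene, A930016O22Rik, shares 451 bases, or 15.5%, of the Ckm exons, and whether the counting used strand was not stated in the labels.

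Ckb (ENSMUSG00000001270, chromosome 12, 111669361 to 111672338, minus strand), the brain form, was the most abundant of the 9 genes per length. WT colon had 990 (t1), 726 (t6) and 1312 (t7) CPM and KO colon 781 (m1), 474 (t4) and 755 (t6) CPM, with overlap. WT jejunum had 1325 (t1), 1413 (t6) and 1385 (t7) CPM, above the 818 (m1), 1179 (t1) and 755 (t4) CPM of KO jejunum. Neither difference passed (log2 fold change -0.59 in colon, adjusted p = 0.358, and -0.58 in jejunum, adjusted p = 0.396). Ckm and Ckb thus had estimates of the same sign in both tissues, of which 1 passed.

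Ldb3 (ENSMUSG00000021798, chromosome 14, 34526603 to 34588682, minus strand) had the smallest p of the 9 genes in colon and ranked 7 of 20886 by p. WT colon had 81.5 (t1), 64.0 (t6) and 104 (t7) CPM, and KO colon 27.1 (m1), 19.4 (t4) and 24.01 (t6) CPM. The lowest WT library was above the highest KO library, at a log2 fold change of -1.82 with SE 0.21 and an edgeR adjusted p = 0.00739. WT jejunum had 87.3 (t1), 93.5 (t6) and 92.2 (t7) CPM and KO jejunum 47.5 (m1), 64.0 (t1) and 44.8 (t4) CPM. Those groups also did not overlap, and the estimate of -0.80 (SE 0.21, adjusted p = 0.140) did not pass. The colon call held in 11 of the 12 fits that left out a library and did not survive when KO colon t6 was left out (adjusted p = 0.0518).

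Actn2 (ENSMUSG00000052374, chromosome 13, 12269426 to 12340760, minus strand) varied widely within groups. WT colon had 13.2 (t1), 4.12 (t6) and 19.4 (t7) CPM and KO colon 6.82 (m1), 2.22 (t4) and 4.46 (t6) CPM. WT colon t6, the lowest WT library, also had the highest sum of epithelial markers (4509 CPM) and the lowest sum of smooth muscle markers in WT colon (59490 CPM), and their part in the Actn2 level was not tested. In jejunum WT had 22.7 (t1), 30.7 (t6) and 27.1 (t7) CPM, inside the range of KO at 7.01 (m1), 36.6 (t1) and 22.3 (t4) CPM. Neither the colon estimate of -1.44 (SE 0.64, adjusted p = 0.340) nor the jejunum estimate of -0.29 (SE 0.62, adjusted p = 0.887), both log2, passed.

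Nexn (ENSMUSG00000039103, chromosome 3, 152236982 to 152266350, minus strand) had 57.3 (t1), 43.4 (t6) and 62.6 (t7) CPM in WT colon and 38.3 (m1), 58.9 (t4) and 26.8 (t6) CPM in KO colon. In jejunum WT had 67.5 (t1), 43.5 (t6) and 60.3 (t7) CPM, and KO had 215 (m1), 65.8 (t1) and 79.0 (t4) CPM. KO jejunum m1 stood far above the other libraries, and the same library held the highest sum of smooth muscle markers. The log2 fold changes were -0.40 in colon (SE 0.43, adjusted p = 0.733) and 1.07 in jejunum (SE 0.43, adjusted p = 0.320), and without KO jejunum m1 the jejunum value was 0.31.

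Myom1 (ENSMUSG00000024049, chromosome 17, 71002633 to 71126856, plus strand) had 302 (t1), 225 (t6) and 488 (t7) CPM in WT colon and 277 (m1), 140 (t4) and 322 (t6) CPM in KO colon, with overlap. In jejunum all KO libraries, with 406 (m1), 374 (t1) and 327 (t4) CPM, lay above WT with 211 (t1), 196 (t6) and 266 (t7) CPM. In log2 this was -0.46 in colon (SE 0.33, adjusted p = 0.565) and 0.72 in jejunum (SE 0.33, adjusted p = 0.380). The estimates of Nexn and Myom1 therefore had opposite signs in the 2 tissues, and neither passed in either.

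Hspb6 (ENSMUSG00000036854, chromosome 7, 30552178 to 30555443, plus strand) had 163 (t1), 156 (t6) and 212 (t7) CPM in WT colon and 48.8 (m1), 61.7 (t4) and 68.4 (t6) CPM in KO colon. In jejunum it had 480 (t1), 469 (t6) and 412 (t7) CPM in WT and 266 (m1), 232 (t1) and 106 (t4) CPM in KO. WT lay above KO without overlap in both tissues. The log2 fold change of -1.57 in colon (SE 0.30, adjusted p = 0.0568) lay just outside the threshold, and passed when either m1 or t4 of KO jejunum was left out (range over the 12 fits 0.0213 to 0.184). In jejunum it was -1.17 (SE 0.30, adjusted p = 0.134). Exons of Hspb6 share 122 bases (5.3%) with Proser3 on the opposite strand.

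Hspb7 (ENSMUSG00000006221, chromosome 4, 141420779 to 141425311, plus strand) was the only one of the 9 genes with estimates above 0 in both tissues. WT colon had 186 (t1), 156 (t6) and 245 (t7) CPM, and KO colon had 109 (m1), 426 (t4) and 345 (t6) CPM, of which m1 lay below all WT libraries. In jejunum KO with 508 (m1), 234 (t1) and 257 (t4) CPM lay above WT with 130 (t1), 193 (t6) and 112 (t7) CPM. Neither estimate passed, at a log2 value of 0.58 in colon (SE 0.46, adjusted p = 0.608) and 1.197 in jejunum (SE 0.46, adjusted p = 0.302).

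**Figure D2:**
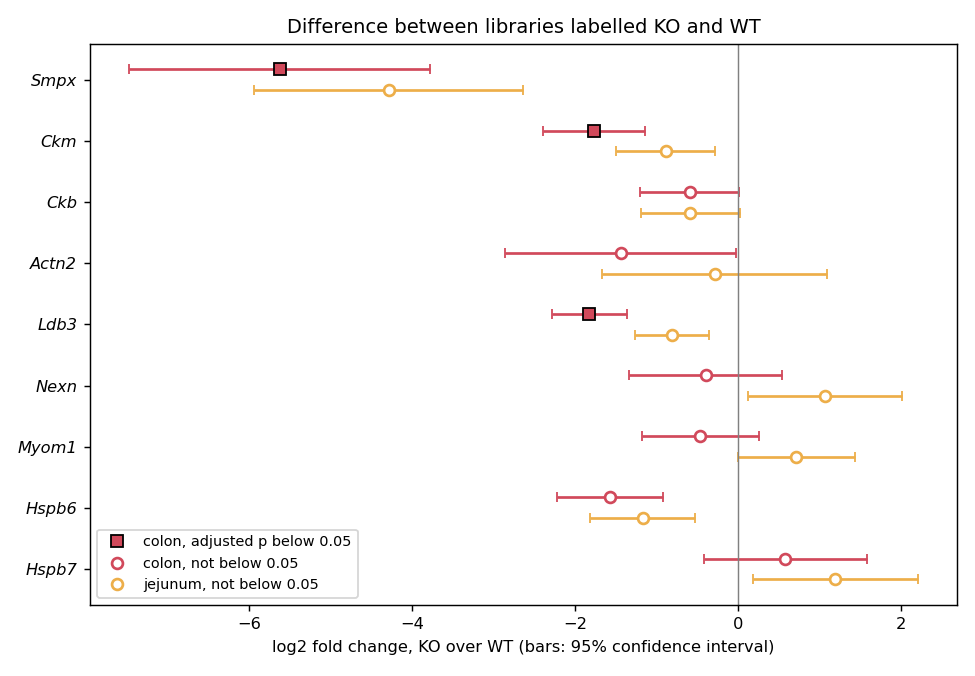
Log2 fold change of KO over WT on the horizontal axis for each of the 9 genes, in colon and in jejunum, with the 95% confidence interval of the edgeR fit as bars and filled squares where the adjusted p was below 0.05. Filled squares are seen for Smpx, Ckm and Ldb3 in colon only, and Hspb7 lies to the right of 0 in both tissues.

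KO and WT did not overlap for 4 of the 9 genes in colon (Smpx, Ckm, Hspb6 and Ldb3) and for 7 in jejunum (all but Actn2 and Nexn). Over all genes the share without overlap was 19.2% in colon and 22.2% in jejunum. Whether the change differed between the tissues was tested as its own contrast. All 9 estimates of the colon change minus the jejunum change were below 0, from -1.47 for Nexn to -0.0079 for Ckb (median -1.02, against -0.027 over all genes). None of the 9 passed (edgeR adjusted p from 0.9405 to 0.9996), 4 of the 9 had an unadjusted p below 0.05, and 0% of the 20886 genes passed, with 869 at an unadjusted p below 0.05. The smallest unadjusted p among the 9 was 0.00480 for Ldb3, at a difference of -1.02 (SE 0.29). The sign for Ckb turned under several alternatives. A call in colon without a call in jejunum is thus not shown to be a difference between the tissues.

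Markers of other muscle were examined beside these values. The estimates of all 13 smooth muscle markers in colon were below 0 (median -0.78, none passed), with sums of 39360 to 52550 CPM in KO colon and 59490 to 86010 CPM in WT colon. In jejunum 7 of the 13 estimates were above 0 (median 0.13, none passed). Of the 18 skeletal muscle markers, 15 were tested, and they summed to 24.5 to 31.5 CPM in KO colon, 49.4 to 73.4 CPM in WT colon, 25.3 to 39.8 CPM in KO jejunum and 25.0 to 34.2 CPM in WT jejunum. Tnnc2 was at 0 in all 12 libraries and Pvalb at 0 in 9, whereas 12 of the 18 had counts in every library, among them Mylpf, Tnnt3, Tnni2, Atp2a1 and Myl1, the last at up to 17.8 CPM. Of the 15 tested, 12 had colon estimates below 0 and 3 above. The skeletal myosin Myh2 had 23.8 CPM in WT colon and 1.55 CPM in KO colon (log2 fold change -3.94, adjusted p = 0.0693), with Mybpc1 at 1.90 and 0.0376 CPM, Mybpc2 at 5.84 and 1.17 CPM and Acta1 at 6.33 and 2.08 CPM, and none of the 15 passed. Neb had 3.86 and 5.73 CPM and Casq1 0.909 and 1.44 CPM. Among 12 cardiac markers, 10 were tested and none passed in either tissue, with 7 colon estimates above 0 and 3 below. Their sums did not overlap in colon (65.65 to 86.6 CPM in WT, 24.1 to 41.0 CPM in KO) or in jejunum (116 to 160.3 CPM in WT, 45.3 to 91.5 CPM in KO). The cardiac troponin Tnnt2 had 60.2 CPM in WT colon against 11.1 CPM in KO colon (log2 fold change -2.43, adjusted p = 0.0839) and 123 against 47.2 CPM in jejunum, whereas Myh7 had 1.94 and 9.81 CPM and Mybpc3 0.146 and 1.18 CPM in WT and KO colon. The part of these markers in the values of the 9 genes was not tested.

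Between the tissues of WT mice, Hspb6 was lower in colon than in jejunum. The log2 fold change of -1.36 had an SE of 0.30 and an edgeR adjusted p = 0.0481, from 177 ± 30.4 CPM in colon to 453 ± 36.4 CPM in jejunum (SD, n = 3 each). It was the 1 gene of the 9 past the threshold, where 1.56% of all genes passed. The call stayed in 3 of the 12 fits that left out a library, those without KO colon t4, KO jejunum m1 or KO jejunum t4 (adjusted p 0.00903 to 0.187), and it was lost with limma voom (adjusted p = 0.0504). The WT libraries of both tissues carry the same tags, and with the tag as a block the call was also lost (edgeR adjusted p = 0.259). Ckm had -0.996 (SE 0.28, adjusted p = 0.121), Actn2 -1.13 (SE 0.63, adjusted p = 0.501), and Smpx -0.62 (SE 0.64, adjusted p = 0.781). WT colon and WT jejunum did not overlap for Ckm, Ckb, Actn2 and Hspb6, beside 22.9% of all genes. The remaining estimates were 0.59 for Myom1, 0.43 for Hspb7, -0.13 for Ldb3, -0.069 for Nexn and -0.45 for Ckb.

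The other genes of each family put these values in context. In the creatine kinase system 6 of 7 listed genes were tested, and 1 (Ckm) passed in colon and none in jejunum, with a colon median of -0.58. The creatine transporter Slc6a8 had 206 CPM in WT and 307 CPM in KO colon (log2 fold change 0.58, adjusted p = 0.478). Gamt, which makes creatine, had 6.77 and 4.55 CPM (-0.57, adjusted p = 0.499), and the mitochondrial kinase Ckmt1 had 206 and 107 CPM (-0.95, adjusted p = 0.672).

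Among small heat shock proteins and their co-chaperone Bag3, 8 of 10 were tested and none passed in either tissue (median 0.55 in colon and 0.36 in jejunum). Hspb8, the partner of Bag3, had 223 CPM in WT and 437 CPM in KO colon (log2 fold change 0.97, adjusted p = 0.196), and Bag3 itself 149 and 214 CPM (0.52, adjusted p = 0.304). Hspb2 had 12.15 and 7.15 CPM (-0.76, adjusted p = 0.208) and Cryab, the alpha-B crystallin gene, 147 and 99.7 CPM (-0.56, adjusted p = 0.318). The estimates of Hspb6, Hspb2 and Cryab were below 0 in colon and the other 5 above it.

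All 4 alpha-actinins were tested and none passed (median -0.41 in colon and 0.084 in jejunum). Actn1 and Actn4, the non-sarcomeric forms, had 1238 and 508.5 CPM in WT colon and 1135 and 408.6 CPM in KO colon, with log2 fold changes of -0.13 (adjusted p = 0.901) and -0.32 (adjusted p = 0.479). Actn3, the form of fast skeletal fibres, had 2.06 and 1.455 CPM (-0.50, adjusted p = 0.524). Of the 7 PDZ-LIM genes, Ldb3 passed in colon and none in jejunum (medians -0.069 and 0.51). Pdlim7 had 562 and 401 CPM in WT and KO colon (-0.49, adjusted p = 0.535), Pdlim3 594 and 630 CPM (0.085, adjusted p = 0.939), Pdlim4 96.0 and 77.3 CPM (-0.31, adjusted p = 0.690) and Pdlim5 92.0 and 97.2 CPM (0.078, adjusted p = 0.929). Ldb3 was thus the 1 member of its family past the threshold, and the difference between family members was not tested.

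Of 22 Z disc and stretch genes, Smpx and Nexn among them, 17 were tested, 1 (Smpx) passed in colon and none in jejunum, with medians of -0.39 and 0.72. Nebl, a nebulin-like Z disc gene, had 3.96 CPM in WT colon and 1.52 CPM in KO colon (log2 fold change -1.38, adjusted p = 0.109), Xirp1 0.813 and 1.90 CPM (1.22, adjusted p = 0.242) and Synpo2 2706 and 1843 CPM (-0.55, adjusted p = 0.384). The LIM gene Fhl1 had 1102 and 499 CPM in WT and KO colon (-1.14, adjusted p = 0.252) and passed only between WT tissues, at 2.92 higher in colon than in jejunum (adjusted p = 0.0118). Of 8 M band genes including Myom1, 6 were tested and none passed in KO against WT, with medians of 0.17 in colon and 0.57 in jejunum. Myom2 had 3.91 and 1.31 CPM in WT and KO colon (-1.58, adjusted p = 0.277) and was higher in WT colon than in WT jejunum by 3.47 (adjusted p = 0.0336).

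The genes with the most similar pattern over the 12 bulk libraries were found by Pearson correlation of log2 CPM among 14280 candidates (14281 for Smpx). Points share group and depth, so the values are a description. Closest were Usp45 (r = 0.963) and Gt(ROSA)26Sor (0.954) for Smpx, Sh3bgr (0.969) and Ppp1cb (0.959) for Ckm, Gm12892 (0.952) and Hist2h2be (0.951) for Ckb, and Clmp (0.987) and Aoc3 (0.975) for Actn2. Ldb3 was closest to Tspan2 (0.965) and Gm11627 (0.962), Hspb6 to Gm4076 (0.970) and Dmpk (0.961), and Hspb7 to Ccdc86 (0.927) and Gdf15 (0.916). Nexn was closest to Rnft1 (0.934) and Nbeal1 (0.934), and Myom1 to Rnf19a (0.846) and Gm15867 (0.837). Gt(ROSA)26Sor is the locus that the mTmG reporter named in the WT label occupies. Among the 9 genes themselves, Ckm and Hspb6 had r = 0.956 and Ckm and Ldb3 0.912, and the lowest value was -0.496 between Ckb and Hspb7. Within groups, after the group means were taken out, Ckb and Ldb3 had the highest value (0.977) and Smpx and Ckm had 0.062.

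Nuclei of the colon were then used to see which cells held the RNA. After filters 2637 WT and 1594 KO nuclei remained, with medians of 1698 and 1984 unique molecular identifiers (UMIs, each standing for 1 RNA molecule), and 11 barcodes occurred in both libraries. The 9 genes were kept out of the variable genes used for clustering. Clusters 0 and 13 met the rule for a smooth muscle-like class (702 WT and 303 KO nuclei), with all 13 smooth muscle markers detected. Cluster 0, whose leading genes included Colec10, Nek10 and Actn2, held 516 WT and 133 KO nuclei, and cluster 13, with Igfbp2, Fgf7, Fn1 and Postn among its leading genes, held 186 and 170, so that cluster 0 made up most of the class in WT and cluster 13 in KO. Clusters 1 (63 and 92 nuclei) and 16 (125 and 36) also had the smooth muscle list as their best match but stayed unnamed because its mean log2 fold was under 1. Cluster 1 was 2.39% of WT and 5.77% of KO nuclei and cluster 16 was 4.74% and 2.26%. With 1 library per genotype there is no test, and intervals cover counting error only.

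The smooth muscle-like class held 21.1% of all WT UMIs but 69.8% of those of Actn2 (exact 95% interval 65.7 to 73.6), 64.9% of Myom1 (63.6 to 66.2), 58.5% of Ckm (44.1 to 71.9) and 57.0% of Ldb3 (52.5 to 61.5). For Hspb7 it was 56.25% (41.2 to 70.5), for Nexn 55.65% (53.1 to 58.1), for Smpx 53.6% (39.7 to 67.0), for Ckb 47.95% (44.4 to 51.5) and for Hspb6 40.9% (20.7 to 63.65). The Hspb6 interval, from 9 of 22 UMIs, includes the 21.1% of all UMIs. In KO the class held 14.5% of all UMIs, and 67.2% of those of Actn2, 54.7% of Myom1, 42.2% of Ldb3, 41.6% of Nexn and 40.2% of Ckb. Clusters 1 and 16 held a further 11.4% (WT) and 23.0% (KO) of Myom1 UMIs and 13.2% and 31.3% of Ldb3 UMIs. Myom1 was by far the most detected, with 3359 UMIs and 1924 CPM in the WT class. Nuclear UMIs include unspliced RNA, so that long genes can yield more, and levels of different genes were not compared here.

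Most skeletal markers had no UMI in the smooth muscle-like class. In WT 12 of the 18 were at 0, Acta1, Mylpf, Tnni2, Tnnc2, Atp2a1 and Pvalb among them, and the other 6 had 31 UMIs together, of which 26 lay in cluster 13 and 5 in cluster 0. In KO 14 of 18 were at 0 and the rest had 12 UMIs. Over all nuclei 12 of the 18 had UMIs in WT (129 together) and 10 in KO (126 together). The cardiac list had 7 of 12 genes at 0 in WT and 9 in KO, with 69 and 26 UMIs for the rest. No cluster had the skeletal or cardiac list as its best match.

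Smpx was found in WT and not in KO nuclei. In WT it had 56 UMIs in 42 of the 2637 nuclei, and in KO 0 UMIs in 1594 nuclei, which allows up to 0.491 CPM at 3 counts, so that KO was at least 13.8-fold lower. In WT, 30 UMIs lay in 27 nuclei of cluster 0 (5.23% of its nuclei, 20.9 CPM), and none in clusters 13, 1 and 16, where 3 counts would be 9.71, 14.5 and 8.42 CPM. Smpx UMIs elsewhere were 11 in cluster 11, which is unnamed and has a median of 9377 UMIs, 7 in epithelial-like nuclei and 8 over other clusters. Of the epithelial-like UMIs, 6 lay in 4 nuclei of cluster 2, at 19.3 CPM (counting interval 7.09 to 42.0). Epithelial-like cluster 4 had 1 UMI (2.60 CPM). The interval of cluster 0 was 14.1 to 29.8 CPM, so its level was not shown to differ from that of cluster 2. The share of nuclei with a Smpx UMI was 3.85% in the WT smooth muscle-like class (median 1814 UMIs), 1.36% in epithelial-like nuclei (1447) and 0.195% in enteric glia-like nuclei (1918). Thinned to 500 UMIs per nucleus, which all nuclei had, the shares were 0.712%, 0.272% and 0.195%. Within the smooth muscle-like class KO was at least 5.08-fold lower than WT, and within cluster 0 alone at least 2.61-fold lower.

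Actn2 and Ldb3 had lower levels in the KO library within cluster 0. Actn2 had 241 CPM in WT and 181.5 CPM in KO nuclei of cluster 0 (KO over WT 0.754, 95% interval 0.5725 to 0.980), and 120 against 99.6 CPM in cluster 13 (0.832, 0.534 to 1.31). In cluster 1 Actn2 had 87.2 and 26.6 CPM (0.305, 0.140 to 0.648, from 18 and 14 UMIs), the lowest of its ratios, and in cluster 16 it had 4 and 2 UMIs (1.73, 0.157 to 12.1). Over the whole class the ratio was 0.612 (0.494 to 0.7535), below those of both its clusters. In all nuclei outside the class, clusters 1 and 16 among them, the Actn2 ratio was lower still, at 0.436 (0.318 to 0.592). Cluster 0 made up most of the class in WT and cluster 13 in KO, so class ratios also depend on the mix of clusters. Ldb3 had 151 CPM in WT and 74.75 CPM in KO nuclei of cluster 0 (0.495, 0.321 to 0.736), but 204 against 166 CPM in cluster 13 (0.814, 0.581 to 1.15) and 126 against 138.5 CPM in cluster 1 (1.10, 0.6945 to 1.79). Over the class Ldb3 had a ratio of 0.795 (0.633 to 0.992), and in all nuclei outside the class 0.917 (0.741 to 1.13). The Ldb3 ratio was thus lowest in cluster 0, and no test of the difference between clusters was possible with 1 library per genotype.

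The remaining genes had ratios on both sides of 1. In the smooth muscle-like class Ckb had 220.5 CPM in WT and 171.5 CPM in KO (0.7775, 0.640 to 0.940), Nexn 491 and 420 CPM (0.855, 0.755 to 0.9665) and Myom1 1924 and 1949 CPM (1.01, 0.955 to 1.07). In cluster 0 the ratios were 0.831 (0.633 to 1.08) for Ckb, 0.875 (0.735 to 1.04) for Nexn and 1.18 (1.10 to 1.28) for Myom1. In cluster 13 they were 0.798 (0.567 to 1.13), 0.9895 (0.788 to 1.25) and 1.045 (0.934 to 1.17). In all nuclei outside the class they were 0.675 (0.572 to 0.7955), 0.956 (0.8515 to 1.07) and 0.986 (0.919 to 1.06). There Ckm had 0.624 (0.273 to 1.34), Hspb6 0.096 (0.00226 to 0.639, from 13 and 1 UMIs) and Hspb7 1.72 (0.95 to 3.18). Over the class Ckm had 31 and 10 UMIs (0.635, 0.278 to 1.33) and Hspb6 9 and 1 (0.219, 0.00499 to 1.58), so that their intervals include equal levels. Hspb7 also had an interval that includes equal levels, with 27 and 23 UMIs (1.68, 0.919 to 3.04). Its ratio was below 1 in cluster 0, with an interval that includes equal levels, and above 1 in cluster 13, from few UMIs. Cluster 0 had 26 UMIs in WT and 5 in KO nuclei (18.1 and 13.35 CPM, ratio 0.738, 0.221 to 1.95). Cluster 13 had 1 UMI in WT and 18 in KO nuclei (35.2 CPM in KO, ratio 10.9 with an interval of 1.715 to 452.5). Of the 8 genes with at least 20 UMIs in the class, 1 (Smpx) was at least 2-fold lower in KO, beside 5.5% of all such genes. In cluster 0 it was 2 of 8 (Smpx and Ldb3), beside 5.95% of such genes. For these counts, sums under 3 UMIs were set at 3, and counting error was left out.

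**Figure D3:**
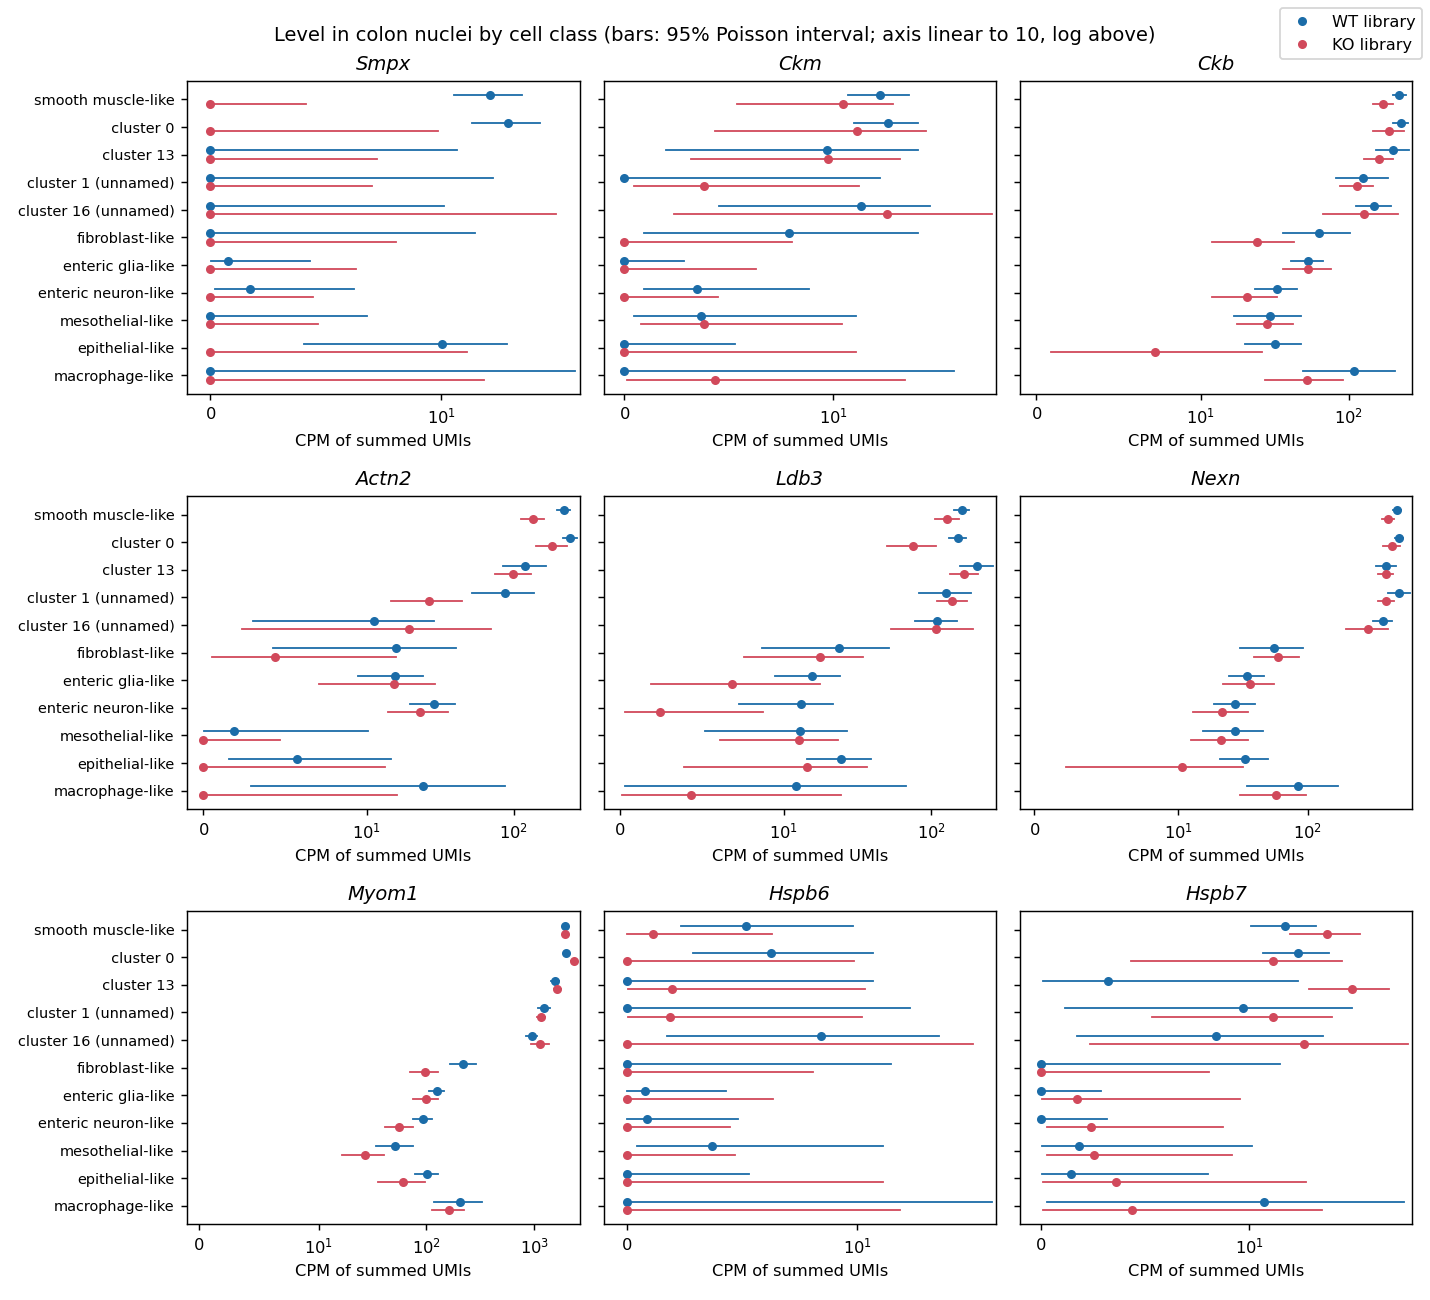
Each panel shows 1 gene, with CPM of summed UMIs on the horizontal axis (linear to 10, logarithmic above) and cell classes or clusters of colon nuclei on the vertical axis; points are the WT and the KO library and lines are 95% Poisson intervals. The highest points of Myom1, Nexn, Ldb3, Ckb and Actn2 lie in smooth muscle-like rows, and Smpx has no point above 0 in KO. Unnamed cluster 1 comes close for Nexn in WT (509 CPM in cluster 0 and in cluster 1).

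UMIs of Actn2 were also counted in enteric neuron-like nuclei, where 14.2% of WT nuclei (exact 95% interval 8.76 to 21.3) and 16.7% of KO nuclei (8.92 to 27.3) had a UMI. These nuclei were deep, with medians of 4891 and 9395 UMIs, and the level was 28.5 and 23.0 CPM, beside 25.4 and 11.1 CPM in all nuclei outside the smooth muscle-like class. How much of this is free RNA was not tested. In epithelial-like nuclei the share was 1.09% in WT and 0% in KO (0 of 137, up to 2.66% by the exact interval), at 5.75 and 0 CPM. After thinning to 500 UMIs the share in neuron-like nuclei was 2.24% in WT and 1.39% in KO, near that of 1 to 3 nuclei. Ckb had 108 and 52.3 CPM in macrophage-like nuclei, 52.7 and 53.2 CPM in enteric glia-like nuclei and 32.8 and 20.6 CPM in enteric neuron-like nuclei of WT and KO. Myom1 had 478 CPM (WT) and 913 CPM (KO) in lymphatic endothelial-like nuclei, of which there were 47 and 39. These levels rest on 45 UMIs in 7 WT nuclei and 114 UMIs in 10 KO nuclei, and doublets may remain among them.

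**Figure D4:**
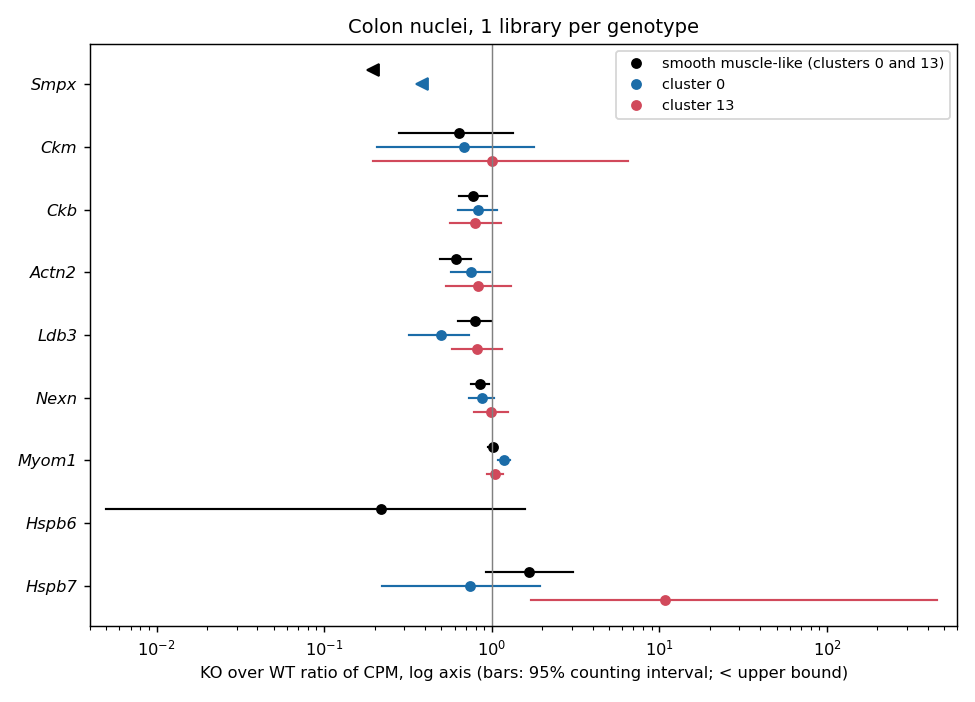
KO over WT ratio of CPM on a logarithmic horizontal axis for each gene in the smooth muscle-like class, in cluster 0 and in cluster 13. Lines are 95% counting intervals, and an arrowhead marks the ratio at 3 counts where KO had no UMI. Ldb3 in cluster 0 lies at 0.495 with an interval below 1, Smpx has arrowheads alone, and Myom1 lies between 1.01 and 1.18.

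Open regions near the start sites were listed for 4 of the 9 genes. Start sites here are those of the deposited gene table of the nuclei, which differ for some genes from the outermost annotated start. Regions were called separately in each library, so that absence from a list is not a level of 0. A region over the Nexn start was listed in both, at chr3:152265261-152266256 in WT and chr3:152265437-152266351 in KO, of which the WT region ends before the outermost annotated start. It had 1.01 counts per 10000 region counts in smooth muscle-like nuclei and 0.472 in all other nuclei of WT, and 0.974 and 0.473 in KO. The ratio of smooth muscle-like to other nuclei was 2.135 in WT and 2.06 in KO. A region over the Actn2 start (chr13:12340386-12341294) was listed in KO, with 0.974 (95% interval 0.624 to 1.45) against 0.2165 (0.143 to 0.315) counts per 10000, a ratio of 4.50. It spans the whole promoter window of Actn2 printed above. A region over the Ckb start (chr12:111671986-111673005) was listed in WT, with 0.558 (0.379 to 0.792) against 0.467 (0.377 to 0.573), a ratio of 1.195, so that the intervals overlap. It spans the MEF2 box. The region listed near Hspb6 in each library also holds the start of the neighbouring gene Proser3, with ratios of 1.09 in WT and 1.255 in KO. No region within 1 kb of the start was listed for Smpx, Ckm, Hspb7, Ldb3 or Myom1 in either library.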

How the data were processed

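Bulk values are whole-number counts per gene, and the nuclei matrices hold whole-number gene values, all deposited by the authors. STAR 2.0.4b, Subread featureCounts 1.4.5, edgeR and Cell Ranger, with builds GRCm38 and mm10, are named in the submitters' processing notes, and cellranger-arc 2.0.0 is named per the file headers. RNA was total RNA of flash-frozen, manually isolated muscularis, per the labels' protocols. The 9 genes and all lists were chosen with earlier results of these data known.

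Of 40757 rows, 276 repeats were removed, and 20886 of 40481 genes passed edgeR's filter on low counts. One edgeR 4.0.16 quasi-likelihood model with TMM scaling was fitted in R 4.3.3 to all 12 libraries and 4 groups (8 residual degrees of freedom), with Benjamini-Hochberg adjustment over all tested genes. Libraries of a group differed beyond sampling noise (chi-square per gene at least 53.8). DESeq2 1.42.0, limma 3.58.1 (voom), other scalings and filters, 6 libraries only and leaving out each library were alternatives. The models were tested on simulated data. RPKM used the summed exon length of GENCODE M21.

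Every gene value of the nuclei matrices was even and was divided by 2, whereas 11.6% (WT) and 11.5% (KO) of region values were odd. Of 3476 WT and 2164 KO barcodes, those with at least 500 UMIs and under 5% mitochondrial UMIs were kept. Scrublet called 2 and 1 doublets, 0.07% and 0.06% of nuclei, too few to rely on the caller, so doublets may remain. Nuclei were clustered in scanpy 1.11.5 (2000 variable genes, 30 components, 15 neighbours, Leiden resolution 1), and clusters were named from marker lists where the mean log2 fold was at least 1 with 3 or more markers detected. Exact Poisson or binomial intervals (scipy 1.17.1) are at 95%. A fold against a library with 0 UMIs is given at 3 counts and leaves out the counting error of the other library.

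Genes named beyond the 9 were those of the lists past the threshold and up to 4 others with the smallest colon p, the markers touching a result, and the 2 genes most correlated with each of the 9. Single skeletal and cardiac markers were named after their values were seen. One gene of the M band list is not reported here.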

Additional observations from a re-analysis of the deposited data

How the results depend on the processing

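Of the 9 genes, 3 passed in colon, and this count was 0 with the 6 colon libraries only and 0 to 4 when 1 library was left out (0 without KO colon t6). Smpx, Ckm and Ldb3 each passed in 6 of the 7 alternatives that kept all colon libraries, all but the fit of 6 libraries. Hspb6 passed in 4 of these 7 (total counts, no filter, DESeq2 and voom). The jejunum count of 0 became 1 with no filter, 1 with at least 1 CPM in 3 libraries, 3 with DESeq2, 1 with voom and 0 to 1 when 1 library was left out. Between WT tissues the count of 1 became 2 with DESeq2, 0 with voom, 2 with 6 libraries and 0 to 2 when 1 library was left out. The count for the difference between tissues was 0 in every alternative run. Deviations of same-tag libraries had correlations of 0.1, -0.008 and 0.061 in WT and -0.163 and -0.095 in KO. With 3 libraries per group, these values cannot show whether the tags pair the samples. With the tag as a replicate block the count between WT tissues was 0 (Hspb6 adjusted p = 0.259) and that for the difference 0. Signs turned for Actn2 in jejunum without KO jejunum m1, with a range of -0.88 to 0.11 over left-out libraries. They turned for the Ckb difference with total counts (0.060), no filter (0.031), voom (0.0091) and the block (0.12), and over left-out libraries (-0.17 to 0.26). Nexn between WT tissues ran from -0.28 to 0.016 over left-out libraries. The cause was not tested. Of 480 single values with a library left out, 418 kept their direction and side of the threshold, as did 259 of 290 under other bulk alternatives. In nuclei 53 of 62 values moved little. The log2 KO over WT of Actn2 (-0.71) was -1.05 with at least 1000 UMIs, -1.18 with all barcodes and -0.37 at resolution 0.5, where 1 cluster was named smooth muscle-like. Myom1 (0.019) was -0.17 with all barcodes, 0.23 at resolution 0.5 and -0.081 with all clusters led by the smooth muscle list, an alternative chosen after seeing the data. At resolution 0.5 the Smpx value at 3 counts was -1.39, Hspb7 -0.45 (0.75 in the main clusters) and Ldb3 -1.03 (-0.33). Low counts, at most 31 UMIs per library in the smooth muscle-like class, limit Smpx, Ckm, Hspb6 and Hspb7 in nuclei.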
